A study of Mus musculus with 30 samples.

Results

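The genes described here are 10 genes of the MHC class I pathway, chosen by symbol from the 48440 genes counted: the heavy chain genes H2-K1, H2-D1 and H2-T23, the light chain gene B2m, the peptide loading genes Tap1, Tap2 and Tapbp, the proteasome genes Psmb8 and Psmb9, and the regulator Nlrc5. All 10 passed the filter on low counts, as did 16862 genes in all. They were measured by RNA sequencing in 30 fibrosarcomas that grew in C57BL/6 mice from 5 primary tumor cell lines, each line taken from a tumor induced by methylcholanthrene (MCA). The labels class MCA-943 with 4 tumors and MCA-969 with 8 tumors as not sensitive to NK cells, although the tumors W-1D and W-2D of MCA-969 carry the opposite label and were kept with their line. The sensitive lines are MCA-948 (8 tumors), MCA-970 (6) and MCA-972 (4). In the study, sensitivity means poorer survival of mice with the tumor once NK1.1+ cells, which include NK cells, ILC1 and NKT cells, were depleted. In culture, NK cells killed cells of all 5 lines. The mouse strain label reads Ncr1Cre R26DTA for the 26 tumors of MCA-948, MCA-969, MCA-970 and MCA-972, and Ncr1Cre for the 4 tumors of MCA-943. In the former genotype diphtheria toxin is made where the NKp46 gene is active, which removes NK cells, ILC1 and other NKp46+ cells. The labels give C57BL/6 as the background of all 30 mice and no age, and they do not say whether the strain label names the mouse that gave the line or the host. The study derived its lines from tumors of mice of both genotypes and transplanted them into C57BL/6 mice. MCA-943 thus differs from the other 4 lines in strain label as well as in line, and these cannot be told apart. Each line stands for 1 parental tumor, hematopoietic cells had been removed with CD45 beads before RNA extraction, and each tumor was used as a replicate of its line.

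MHC class I molecules carry peptides from inside the cell to its surface. The proteasome cuts proteins into peptides, the TAP transporter moves these into the endoplasmic reticulum, tapasin holds TAP and the empty class I molecule together, and the heavy chain leaves for the surface only once it is bound to beta2-microglobulin and a peptide. T cells read the peptide, whereas NK cells carry inhibitory receptors that bind class I itself, so that a cell which has lost class I can be killed by missing-self recognition. NLRC5 is a transactivator that enters the nucleus and is recruited to class I promoters by factors bound to a conserved module of W/S, X and Y boxes, and interferon raises most genes of the pathway.

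The promoter sequences are shown because the heavy chain and light chain genes share this module. Promoter windows of 300 bases, from 250 bases before to 50 bases after the RefSeq start on the strand of the gene, were found for 8 of the 10 genes in the RefSeq table of build GRCm38.p6. Tap2 and Nlrc5 had no entry. The motifs were searched on both strands and were chosen after the windows had been read. Capitals mark AANNGAAA, a core bound by interferon regulatory factors, TGACG, the core of the X2 box, which resembles a cyclic AMP response element, and CCAAT, the core of the Y box, which reads ATTGG on the opposite strand. No marked stretch overlapped another in the 4 windows printed.
H2-K1, chr17:34000298-34000597, minus strand: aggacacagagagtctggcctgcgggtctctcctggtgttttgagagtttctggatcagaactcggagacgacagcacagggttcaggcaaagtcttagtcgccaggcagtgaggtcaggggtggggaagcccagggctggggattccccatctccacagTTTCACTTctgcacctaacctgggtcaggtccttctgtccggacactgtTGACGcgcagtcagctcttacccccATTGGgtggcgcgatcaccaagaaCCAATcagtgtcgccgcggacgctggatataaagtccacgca
H2-D1, chr17:35262844-35263143, plus strand: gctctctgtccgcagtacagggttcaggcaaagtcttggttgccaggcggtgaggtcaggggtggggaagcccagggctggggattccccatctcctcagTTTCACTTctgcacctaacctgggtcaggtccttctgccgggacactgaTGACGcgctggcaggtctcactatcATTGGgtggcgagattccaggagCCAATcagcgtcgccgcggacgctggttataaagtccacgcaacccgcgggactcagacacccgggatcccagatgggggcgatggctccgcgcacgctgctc
B2m, chr2:122147437-122147736, plus strand: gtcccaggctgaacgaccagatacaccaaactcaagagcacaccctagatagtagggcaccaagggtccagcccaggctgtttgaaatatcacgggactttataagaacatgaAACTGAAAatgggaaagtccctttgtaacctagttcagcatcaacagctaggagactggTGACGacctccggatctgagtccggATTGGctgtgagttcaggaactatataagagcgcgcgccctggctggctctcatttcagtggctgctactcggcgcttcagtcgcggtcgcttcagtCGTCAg
Tap1, chr17:34187306-34187605, plus strand: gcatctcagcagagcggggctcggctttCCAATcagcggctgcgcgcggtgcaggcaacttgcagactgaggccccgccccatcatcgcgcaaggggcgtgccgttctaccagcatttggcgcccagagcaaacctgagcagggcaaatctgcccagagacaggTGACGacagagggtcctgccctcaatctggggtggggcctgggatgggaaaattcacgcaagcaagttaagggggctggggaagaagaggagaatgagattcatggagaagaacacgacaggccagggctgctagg

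In the windows of H2-K1, H2-D1 and B2m an IRF core was followed by TGACG, and ATTGG began exactly 25 bases after the beginning of TGACG. This spacing was found in 31 of 32544 promoter windows of all genes, 0.095%, among them the window of H2-M3, another class I heavy chain gene. The 31 include the windows of H2-K1, H2-D1 and B2m themselves. The spacing, like the motifs, was chosen after these had been read, so that its rarity is a description only. Taken alone, the motifs were common: 23.9% of all windows held an IRF core, 20.9% TGACG and 37.4% CCAAT. The windows of H2-T23, Tap1, Tapbp, Psmb8 and Psmb9 did not hold the spaced pair. H2-T23 had 2 IRF cores and 1 CCAAT box. The Tap1 window overlapped the Psmb9 window on the opposite strand, because these genes are transcribed away from each other from 1 shared promoter. A match to these letters is a description of the sequence and no measure of binding in the tumors.

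Between 27745104 and 46537062 counts per tumor were assigned to genes, and tumors of 1 line differed by more than sampling noise (chi-square of at least 17.2 per gene and degree of freedom, where noise alone gives about 1). Fibroblast and fibrosarcoma markers were detected in every line, with 8 of 8 genes. Their summed level in CPM (counts per 1000000 counts) was 54303 to 62017 in MCA-943, above every tumor of the other lines, and 29728 to 39870 in MCA-972, 23489 to 34388 in MCA-970, 9561 to 16801 in MCA-969 and 11577 to 16662 in MCA-948. MCA-943 and MCA-948 are also the extremes of most of the 10 genes, and the part of these markers in the class I levels was not tested. Tumor W-2D of MCA-969 stood apart from the other tumors of its line, with a chi-square of 219.5 to 307 per gene against each of them, and W-1D and W-2D are the only MCA-969 tumors in run 2 as well as those of opposite sensitivity label. Called stands for an adjusted p-value (Benjamini-Hochberg, edgeR's quasi-likelihood test) under 0.05 together with a log2 fold change of 1 or more in size. Without W-1D and W-2D, the count of called class I genes was the same in all 10 comparisons of lines. The library numbers fell into 3 groups of near numbers, which are called runs here, although no label names a sequencing run. The runs are not independent of the lines. MCA-972 was only in run 1, MCA-970 only in run 2 and MCA-943 only in run 3. MCA-969 lay in runs 1 and 2, and MCA-948 in runs 2 and 3. In bulk tissue, fewer cells that express a gene and less RNA per cell cannot be told apart.

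The 10 genes differed between the lines by 7.42-fold to 187-fold, and 6 of them followed 1 order. H2-K1, H2-D1, B2m, Tap1, Psmb8 and Psmb9 were highest in MCA-943, followed by MCA-970, MCA-969, MCA-972 and MCA-948. Tap2 and Tapbp differed from this order in that MCA-972 lay above MCA-969, and Nlrc5 in that MCA-969 lay above MCA-970. For H2-T23 the order was MCA-943, MCA-969, MCA-970, MCA-948 and MCA-972. MCA-943, which is labelled not sensitive, was highest for all 10 genes, whereas the order of the other non-sensitive line, MCA-969, and the sensitive MCA-970 depended on the gene. MCA-970 was above MCA-969 in 8 genes, and MCA-969 above all 3 sensitive lines in H2-T23 and Nlrc5. In the quasi-likelihood F test among the 5 lines of edgeR, adjusted p-values of the 10 genes ran from 1.87e-21 for H2-D1 to 1.53e-15 for Tap1. Such a difference was common in these tumors, since 94.1% of the tested genes had an adjusted p-value under 0.05. The highest line mean exceeded the lowest by a median of 6.28 on the log2(CPM + 0.1) scale over the 10 genes and by 1.11 over all tested genes, and the share of tested genes with a wider range was from 0.308% for Psmb8 to 8.70% for B2m and 12.3% for Tapbp.

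**Figure D1:**
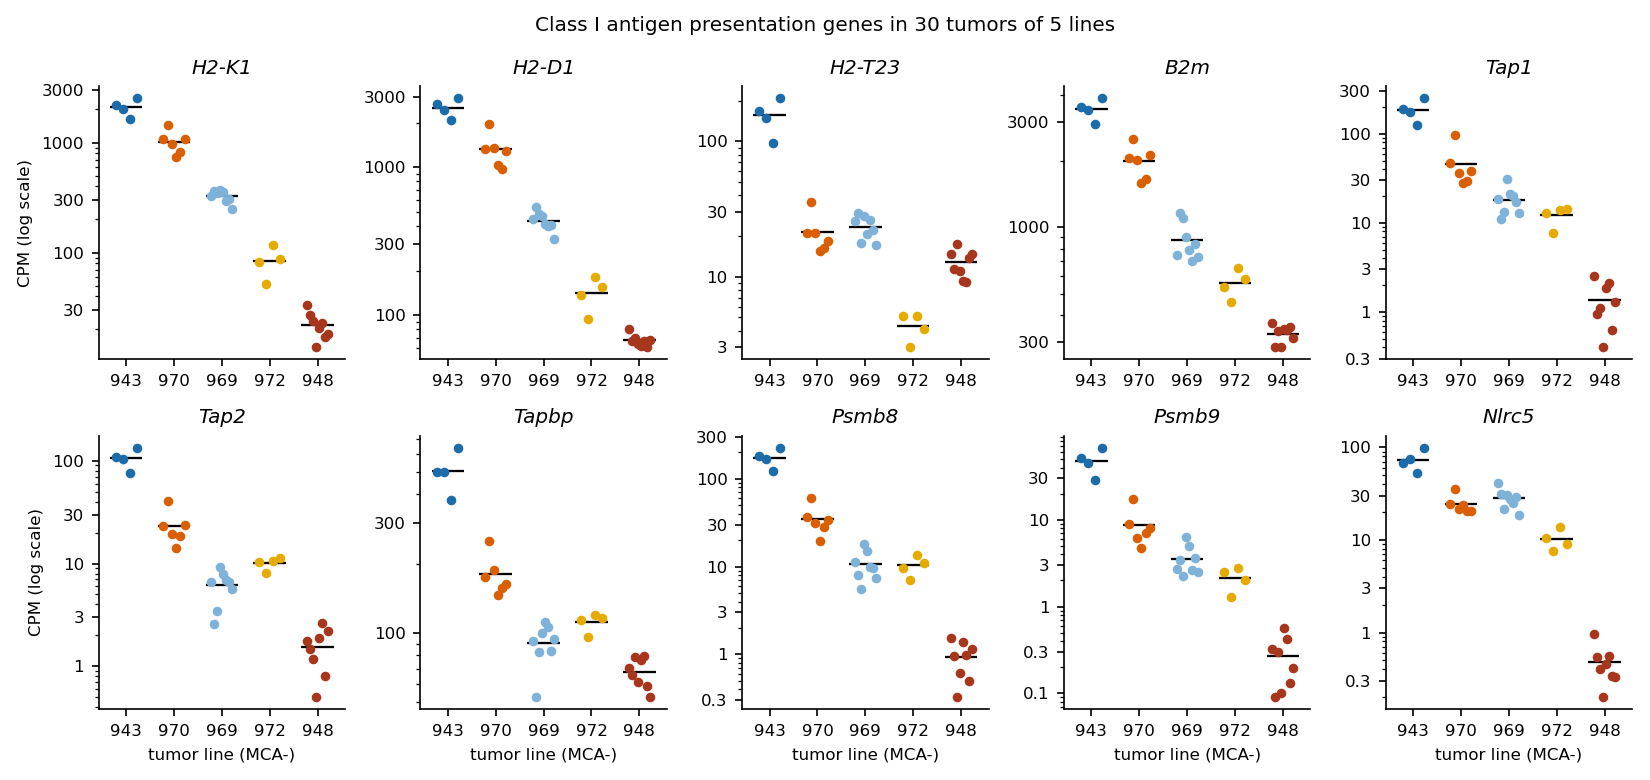
Level of each of the 10 genes in every tumor. Each point is 1 tumor, black lines are line means, the vertical axes are CPM on a log scale, and the lines are ordered along each horizontal axis as MCA-943, MCA-970, MCA-969, MCA-972 and MCA-948. H2-K1 falls from line to line with no overlap of tumors, whereas MCA-972 is the lowest line for H2-T23 only.

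The classical heavy chains were the genes with the clearest steps. H2-K1 (chr17:33996017-34000347, minus strand, GRCm38) encodes the H2-K heavy chain, a ligand of T cell receptors and of inhibitory Ly49 receptors of NK cells. In MCA-943 its level was 2193 CPM in tumor W-2G, 2020.1 in a-1D, 1628 in a-1G and 2522 in a-R. In MCA-972 it was 81.5 CPM in tumor 2G, 51.5 in a-1, 117 in a-1G and 87.7 in a-R. All MCA-943 tumors were thus far above all MCA-972 tumors. The lowest, median and highest levels were 738, 1023 and 1449.7 CPM in MCA-970, 250.2, 339 and 367 CPM in MCA-969, and 13.9, 21.5 and 33.1 CPM in MCA-948. No tumor of any line overlapped a tumor of the next line, and H2-K1 was called in all 10 comparisons of lines. The call between MCA-943 and MCA-970 (1.03 on the log2 scale) was lost with the run (0.62) or the leukocyte score in the model, and without MCA-943 tumor a-R (0.93), MCA-970 tumor a-1D (0.95) or MCA-970 tumor a-2D (0.98). The mean level per length fell from 802 ± 143 CPM per kb (SD, n = 4) in MCA-943 to 8.44 ± 2.34 CPM per kb (SD, n = 8) in MCA-948, a log2 fold change of 6.57 ± 0.21 (SE, edgeR adjusted p = 1.99e-20).

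H2-D1 (chr17:35262730-35267499, plus strand, GRCm38) encodes the H2-D heavy chain, the other classical class I molecule of C57BL/6 mice. Its level was 2681, 2419, 2091 and 2914 CPM in the MCA-943 tumors W-2G, a-1D, a-1G and a-R, and 61.0 to 80.9 CPM in the 8 MCA-948 tumors. As for H2-K1, tumors of neighbouring lines did not overlap. The step from MCA-970 (966 to 1964 CPM) to MCA-943 was 0.94 ± 0.16 on the log2 scale (SE, edgeR adjusted p = 9.74e-06), which is under the fold threshold, and it was the only pair of lines in which H2-D1 was not called. The step from MCA-948 to MCA-972 (94.6 to 180.3 CPM) was 1.07 ± 0.15 (SE, edgeR adjusted p = 3.65e-07) and came to 0.90 without MCA-972 tumor a-1G, so that this call was lost without 1 tumor.

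H2-K1 and H2-D1 did not change in proportion. Within a tumor, the ratio of H2-K1 to H2-D1 in CPM per kb was 0.815 ± 0.036 (SD, n = 4) in MCA-943, 0.77 ± 0.06 (n = 6) in MCA-970 and 0.751 ± 0.054 (n = 8) in MCA-969. It was 0.583 ± 0.044 (SD, n = 4) in MCA-972 and 0.319 ± 0.066 (n = 8) in MCA-948. The ratio thus was lowest in the line with the lowest level of both genes, and the highest MCA-948 tumor, at 0.405, lay under the lowest MCA-972 tumor, at 0.538. The class I heavy chain genes have near-identical stretches, and how the counting treated reads that match several of them is not given in the sources used here, so that values of single heavy chain genes carry this uncertainty.

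H2-T23 broke the common order. This gene (chr17:36029773-36032855, minus strand, GRCm38) encodes the heavy chain of Qa-1, a nonclassical class I molecule that presents leader peptides of other class I chains to the NK receptor CD94/NKG2A. Its level was 169, 148, 97.2 and 208 CPM in the MCA-943 tumors W-2G, a-1D, a-1G and a-R, and 5.08, 3.03, 5.16 and 4.09 CPM in the MCA-972 tumors 2G, a-1, a-1G and a-R. The lowest, median and highest levels were 17.3, 23.9 and 29.7 CPM in MCA-969, 15.5, 19.7 and 35.7 CPM in MCA-970, and 9.17, 12.6 and 17.6 CPM in MCA-948. MCA-972 lay below all other lines without overlap, and MCA-943 above them, while MCA-969, MCA-970 and MCA-948 overlapped. H2-T23 was lower in MCA-972 than in MCA-948 by 1.55 ± 0.24 on the log2 scale (SE, edgeR adjusted p = 1.94e-06), where 7 of the other 9 genes were called higher. Between MCA-969 and MCA-970 it differed by 0.14 ± 0.19 (SE, edgeR adjusted p = 0.543), and between MCA-970 and MCA-948 by 0.74 ± 0.19 (SE, edgeR adjusted p = 0.000969), under the fold threshold. An antisense gene, A930015D03Rik, overlaps H2-T23, and the strand setting of the counting is not given in the sources used here.

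B2m moved in the same direction as the classical heavy chains over a narrower range. It encodes beta2-microglobulin, the light chain shared by all class I molecules (chr2:122147686-122153083, plus strand, GRCm38), and lies outside the MHC. Its level was 3526, 3398, 2955 and 3847 CPM in the MCA-943 tumors W-2G, a-1D, a-1G and a-R, and 534, 458, 650.2 and 585 CPM in the MCA-972 tumors 2G, a-1, a-1G and a-R. The lowest, median and highest levels were 1593, 2047 and 2518 CPM in MCA-970, 701, 816 and 1157 CPM in MCA-969, and 286, 340.2 and 368 CPM in MCA-948. The lines did not overlap, although the steps from MCA-970 to MCA-943 (0.78 ± 0.14, SE), from MCA-972 to MCA-969 (0.65 ± 0.13) and from MCA-948 to MCA-972 (0.76 ± 0.13) were under the fold threshold, with edgeR adjusted p-values of 1.27e-05, 0.000165 and 6.61e-06. Between MCA-943 and MCA-948 the log2 fold change was 3.38 ± 0.13 (SE, edgeR adjusted p = 5.20e-19), which was smaller than for the other genes except Tapbp.

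The light chain was in larger excess over the classical heavy chains where their level was low. The ratio of B2m to the sum of H2-K1 and H2-D1, in CPM per kb, was 2.25 ± 0.12 (SD, n = 4) in MCA-943, 2.61 ± 0.20 (n = 6) in MCA-970 and 3.45 ± 0.42 (n = 8) in MCA-969. It was 7.67 ± 1.23 (SD, n = 4) in MCA-972 and 11.2 ± 1.40 (n = 8) in MCA-948. MCA-972 (6.59 to 9.45) overlapped MCA-948 (9.20 to 13.5), and both lay above all tumors of the other 3 lines, whose highest ratio was 3.99.

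**Figure D2:**
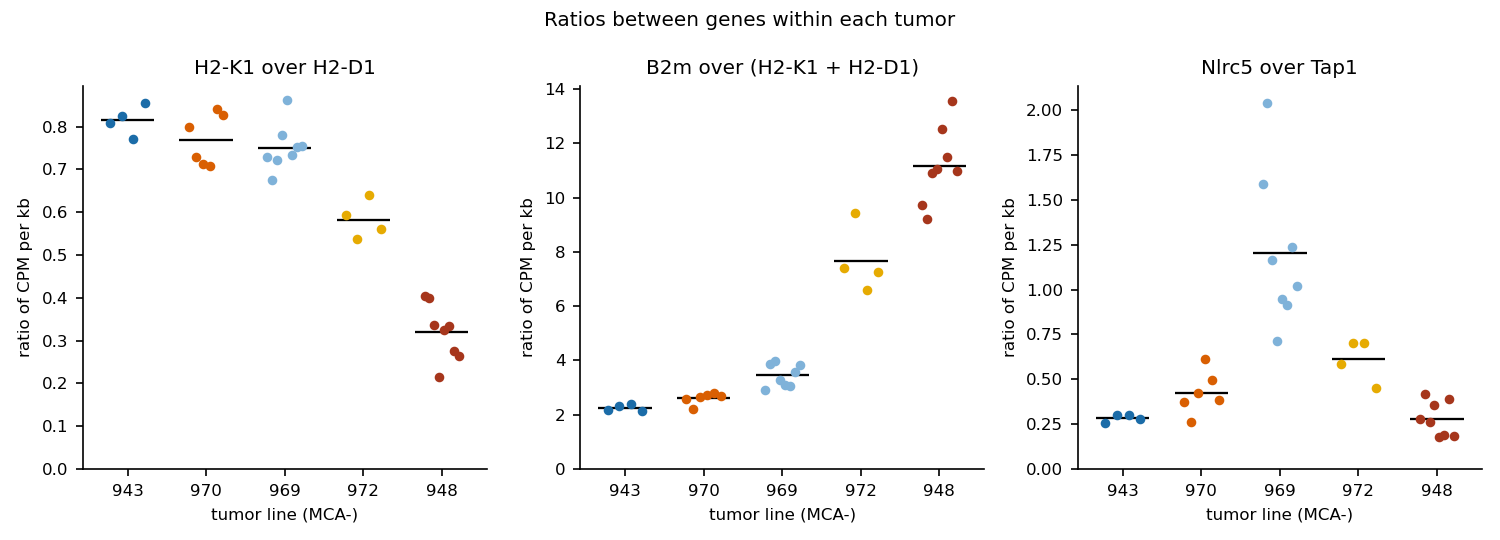
Ratios between genes within each tumor, in CPM per kb, by line. Points are tumors and black lines are line means: H2-K1 over H2-D1 on the left is lowest in MCA-948 (mean 0.319), B2m over the sum of H2-K1 and H2-D1 in the middle is highest in MCA-948 (mean 11.2), and Nlrc5 over Tap1 on the right is highest in MCA-969 (mean 1.20).

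Of the TAP transporter genes, Tap1 had a wider range than the heavy chains (137-fold between line means), and Tap2 (68.0-fold) lay between H2-K1 (95-fold) and H2-D1 (37.4-fold). Tap1 (chr17:34187553-34197225, plus strand, GRCm38) encodes TAP1, which pairs with TAP2 to form the peptide channel. Its level was 188, 177, 127 and 249 CPM in the MCA-943 tumors W-2G, a-1D, a-1G and a-R, and 13, 7.78, 14 and 14.3 CPM in the MCA-972 tumors 2G, a-1, a-1G and a-R. The lowest, median and highest levels were 27.8, 37.6 and 96.7 CPM in MCA-970, 11.1, 17.8 and 30.9 CPM in MCA-969, and 0.406, 1.20 and 2.52 CPM in MCA-948, where 12 to 101 reads were counted per tumor. MCA-943 lay above and MCA-948 below all other lines, and the 3 lines between them overlapped in part. The range of 7.07 ± 0.36 on the log2 scale between MCA-943 and MCA-948 (SE, edgeR adjusted p = 8.32e-16) compares with 6.57 ± 0.21 for H2-K1. MCA-969 and MCA-972 differed by 0.56 ± 0.33 (SE, edgeR adjusted p = 0.160).

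Tap2 (chr17:34203527-34216321, plus strand, GRCm38), which encodes the other chain of the channel, ran from 76.8 to 132 CPM in MCA-943, from 14.2 to 40.8 in MCA-970, from 8.14 to 11.2 in MCA-972, from 2.57 to 9.34 in MCA-969 and from 0.507 to 2.66 in MCA-948. MCA-969 had a lower mean than MCA-972, and its tumors overlapped those of both MCA-972 and MCA-948. The difference between MCA-969 and MCA-972 was -0.71 ± 0.29 on the log2 scale (SE, edgeR adjusted p = 0.0429), under the fold threshold. The ratio of Tap2 to Tap1 per length was lowest in MCA-969, at 0.491 ± 0.102 (SD, n = 8), and highest in MCA-948, at 1.78 ± 0.460 (SD, n = 8), and the lowest tumor of MCA-948 (1.00) lay above the highest of MCA-969 (0.640).

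Tapbp (chr17:33915899-33929292, plus strand, GRCm38), which encodes tapasin, had the narrowest range of the 10 genes. It ran from 377 to 635 CPM in MCA-943, from 146 to 250.004 in MCA-970, from 95.9 to 119 in MCA-972, from 52.9 to 112 in MCA-969 and from 52.9 to 79.6 in MCA-948. MCA-943 and MCA-970 stood apart from each other and from the rest, and MCA-969 overlapped both MCA-972 and MCA-948, which did not overlap each other. MCA-969 exceeded MCA-948 by 0.42 ± 0.13 on the log2 scale (SE, edgeR adjusted p = 0.00612), and MCA-972 exceeded MCA-969 by 0.30 ± 0.15 (SE, edgeR adjusted p = 0.103). Tapbp was called in 5 of the 10 pairs of lines, all 4 with MCA-943 and that of MCA-970 with MCA-948.

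Psmb8 and Psmb9 had the widest ranges of the 10 genes by ratio of line means. They encode LMP7 and LMP2, the inducible catalytic subunits that replace PSMB5 and PSMB6 of the standard proteasome to form the immunoproteasome. Psmb8 (chr17:34197721-34201454, plus strand, GRCm38) stood at 182, 166, 123 and 223 CPM in the MCA-943 tumors W-2G, a-1D, a-1G and a-R, and at 0.329 to 1.55 CPM in the 8 MCA-948 tumors, on 13 to 69 reads. The log2 fold change between these lines was 7.53 ± 0.33 (SE, edgeR adjusted p = 3.21e-17), without overlap. Psmb9 (chr17:34181987-34187764, minus strand, GRCm38) stood at 51.4, 45.0, 28.9 and 66.8 CPM in the same MCA-943 tumors and at 0.0917 to 0.562 CPM in MCA-948, on 3 to 28 reads, so that its MCA-948 level is the least precise of the 10 genes. Its log2 fold change was 7.41 ± 0.38 (SE, edgeR adjusted p = 7.13e-16). Psmb8 in MCA-969 (5.52 to 17.9 CPM) and MCA-972 (7.12 to 13.6 CPM) overlapped and differed by 0.03 ± 0.29 (SE, edgeR adjusted p = 0.941), although MCA-969 had 3.88-fold more H2-K1 than MCA-972.

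The subunits that Psmb8 and Psmb9 replace did not share this range. Psmb5 had line means between 46.8 and 54.1 CPM and Psmb6 between 101 and 157 CPM, and neither was called in any pair of lines. Per length, Psmb8 reached 113% ± 22 of Psmb5 (SD, n = 4) in MCA-943, 20.6% ± 8.3 (n = 6) in MCA-970, 6.92% ± 2.82 (n = 8) in MCA-969 and 7.09% ± 2.07 (n = 4) in MCA-972. In MCA-948 it was 0.642% ± 0.307 (SD, n = 8). Psmb9 relative to Psmb6 went from 24.2% ± 7.2 (SD, n = 4) in MCA-943 to 0.117% ± 0.080 (n = 8) in MCA-948, with 1.64% ± 0.73 (n = 8) in MCA-969 and 0.939% ± 0.285 (n = 4) in MCA-972. The third inducible catalytic subunit, Psmb10, was less steep: its share of Psmb7 was 179.7% ± 39.2 (SD, n = 4) in MCA-943 and 19% ± 3.3 (n = 8) in MCA-948.

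Nlrc5 (chr8:94434356-94527272, plus strand, GRCm38) encodes the class I transactivator itself. Its level was 67.2, 74.9, 52.8 and 97.7 CPM in the MCA-943 tumors W-2G, a-1D, a-1G and a-R, and 10.6, 7.62, 13.8 and 9.02 CPM in the MCA-972 tumors 2G, a-1, a-1G and a-R. The lowest, median and highest levels were 18.5, 28.5 and 41.1 CPM in MCA-969, 20.6, 22.7 and 35.5 CPM in MCA-970, and 0.203, 0.433 and 0.973 CPM in MCA-948, on 6 to 39 reads. MCA-948 had at most 39 reads per tumor where every other tumor had at least 279. The log2 fold change between MCA-943 and MCA-948 was 7.23 ± 0.25 (SE, edgeR adjusted p = 1.44e-19), and that between MCA-972 and MCA-948, the lines with the least H2-K1, was 4.39 ± 0.25 (SE, edgeR adjusted p = 5.00e-15).

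MCA-969 and MCA-970 had overlapping Nlrc5 levels, with a difference of 0.21 ± 0.19 on the log2 scale (SE, edgeR adjusted p = 0.336), while H2-K1, H2-D1, B2m, Tap1, Tap2, Psmb8 and Psmb9 were called lower in MCA-969. The ratio of Nlrc5 to Tap1 per length was 1.20 ± 0.43 (SD, n = 8) in MCA-969 and 0.426 ± 0.119 (SD, n = 6) in MCA-970, and the lowest MCA-969 tumor (0.714) lay above the highest tumor of every other line (0.705). In MCA-943 and MCA-948, at the opposite ends of the Nlrc5 range, this ratio was 0.284 ± 0.021 (SD, n = 4) and 0.281 ± 0.096 (SD, n = 8). With the run of library numbers in the model, the Nlrc5 difference between MCA-943 and MCA-969 shrank from 1.37 to 0.34 (edgeR adjusted p = 0.671) and was no longer called.

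Counted over the 10 genes, every comparison with MCA-943 went 1 way. Against MCA-948, 10 of the 10 genes were called higher in MCA-943 and 0 lower, beside 17.7% and 11.3% of all tested genes, and the median log2 fold change was 6.32 beside -0.01 over all tested genes. Against MCA-972, 10 were higher and 0 lower, beside 12.2% and 13.4% of all tested genes, and against MCA-969, 10 were higher and 0 lower, beside 12.1% and 14.9%. Against MCA-970, 8 were higher and 0 lower, beside 12.6% and 14.8%, with H2-D1 and B2m under the fold threshold. With the run in the model this last count fell to 4: H2-K1 then differed by 0.62 (edgeR adjusted p = 0.132) and Tap1 by 1.30 (edgeR adjusted p = 0.146). MCA-943 and MCA-970 share no run and were then joined only through MCA-948. In run 3, which holds 4 MCA-943 and 6 MCA-948 tumors, 10 of the 10 genes were called higher in MCA-943 as over all runs.

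MCA-948 was at the other end. MCA-970 exceeded it in 9 of the 10 genes, with 0 lower, beside 19.8% and 9.64% of all tested genes, and the exception was H2-T23. MCA-969 exceeded it in 8 genes, with 0 lower, beside 16.8% and 3.91%, and the exceptions were H2-T23 and Tapbp. MCA-972 exceeded it in 7 genes, beside 18.5% of all tested genes, and was lower in 1, H2-T23, beside 8.27%, with B2m and Tapbp under the fold threshold. Within run 2, the counts against MCA-948 were 9 for MCA-970 and 7 for MCA-969, whose only tumors there are W-1D and W-2D, those of opposite label, where Tap2 missed the adjusted threshold (log2 fold change 1.65, edgeR adjusted p = 0.0901) with 2 tumors of each line. The comparisons with MCA-948 share its 8 tumors and are not independent.

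**Figure D3:**
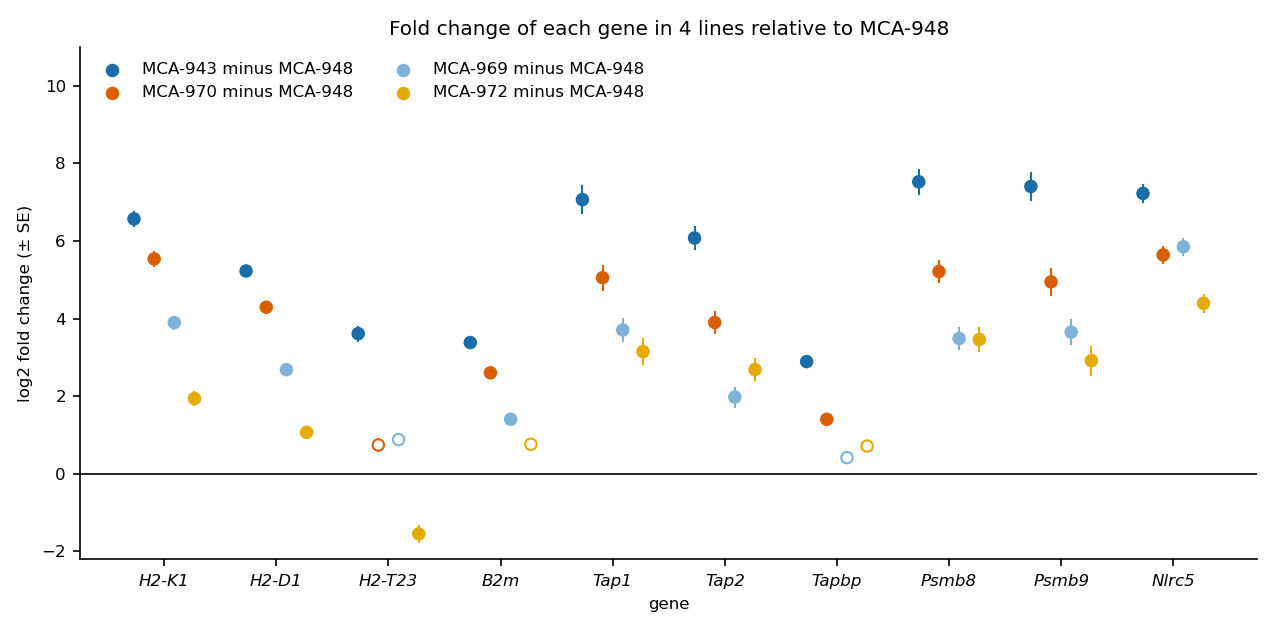
Log2 fold change of each gene in MCA-943, MCA-970, MCA-969 and MCA-972 relative to MCA-948. Bars are standard errors, filled points were called and open points were not. All comparisons share the 8 MCA-948 tumors, and H2-T23 in MCA-972 is the only point below 0.

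The lines in between differed in part. MCA-970 was higher than MCA-972 in 9 of the 10 genes and lower in 0, beside 8.56% and 9.01% of all tested genes. The summed level of 6 endothelial markers was also higher in MCA-970, 261 to 492 CPM with a median of 458, beside medians of 67.5 in MCA-972, 71.2 in MCA-943, 78.9 in MCA-948 and 125 in MCA-969, and its part in the comparisons with MCA-970 was not tested. MCA-969 was higher than MCA-970 in 0 genes and lower in 7, beside 10.7% in either direction, and higher than MCA-972 in 4 (H2-K1, H2-D1, H2-T23 and Nlrc5) and lower in 0, beside 10.3% in either direction. Without MCA-970 tumor W-2D, Tap1 and Psmb9 differed between MCA-969 and MCA-970 by -0.99 and -0.97 on the log2 scale and were no longer called. Within run 1, MCA-969 exceeded MCA-972 in 4 genes, and within run 2, 8 of the 10 genes were lower in MCA-969 than in MCA-970, where MCA-969 is again represented by W-1D and W-2D alone.

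Whether class I levels differ with sensitivity to NK1.1+ cells in mice bears on missing-self recognition, and in the study NK cells killed all 5 lines in culture. Sensitivity is a property of the line and not of the tumor. Over the 5 line means of log2 CPM, the mean of the 2 non-sensitive lines was above that of the 3 sensitive lines for all 10 genes, by 0.93 for Tapbp to 3.17 for Nlrc5. In the two-sided exact permutation test over lines, p was 0.1 for H2-T23, which is the smallest value that 5 lines allow, 0.2 for Nlrc5, 0.3 for H2-K1 and H2-D1, and 0.4 to 0.5 for the other 6 genes. None of these reached 0.05, which a split of 5 lines into 2 and 3 cannot do. H2-T23 and Nlrc5 were the genes for which both non-sensitive lines had higher means than all 3 sensitive lines, and in both the tumors of MCA-969 and MCA-970 overlapped. For the other 8 genes MCA-970 lay above MCA-969.

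Leukocytes express class I strongly, so their markers were measured beside the 10 genes. All 8 leukocyte markers had counts in every line, with summed levels of 29.6 to 149 CPM in MCA-943, 18.5 to 59.1 in MCA-948, 19.98 to 144 in MCA-970, 13.1 to 40.9 in MCA-972 and 7.09 to 31.4 in MCA-969. MCA-943 had the highest median, 76.1 CPM. MCA-948, the lowest line for 9 of the 10 genes, had the next highest, 32.1 CPM, and MCA-969 had the lowest, 11.4 CPM. MCA-970 had a median of 29.5 CPM, but its tumors W-1D (144 CPM) and W-R (94.6 CPM) lay above every MCA-948 tumor. The order of MCA-948 and MCA-970 therefore depends on whether medians or means are taken. Within MCA-970, tumor W-2D was highest in all 10 genes and had the lowest leukocyte sum, 19.98 CPM, and W-1D had the highest, 144 CPM. Within MCA-943, tumor a-R was highest and a-1G lowest in all 10 genes, and both had low leukocyte sums, 38.6 and 29.6 CPM. With the leukocyte score in the model, the counts of called genes were as before except that H2-K1 came to rest just under the fold threshold between MCA-943 and MCA-970 (log2 fold change 1.00 after rounding). Without the 3 tumors whose leukocyte sum exceeded 100 CPM, the counts of the 10 comparisons were those of all tumors. Leukocyte levels differed between the lines, and beyond these alternatives their part in the class I levels was not tested.

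**Figure D4:**
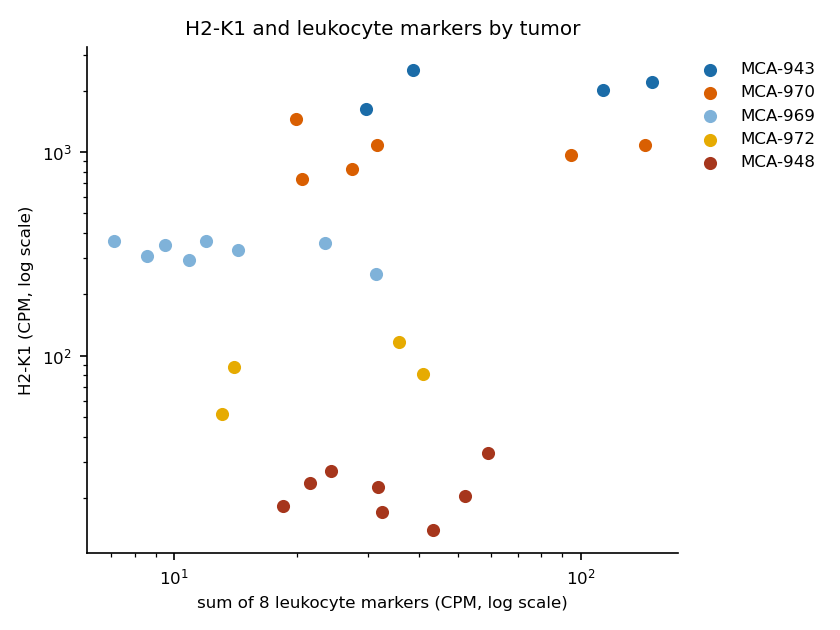
H2-K1 against the summed level of 8 leukocyte markers in each of the 30 tumors, both in CPM on log scales. Colors mark the lines, and the lines separate along the H2-K1 axis and overlap along the leukocyte axis.

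The titles of 29 tumors carry a letter, W or a, that the labels do not explain, and 4 lines have tumors of both kinds. MCA-943 has 1 W and 3 a tumors, MCA-972 has no W tumor, and the other lines have equal numbers. The main comparisons of lines did not adjust for the letter. The study transplanted its lines with and without an antibody that depletes NK1.1+ cells, and no label ties the letter to this. In a model with line and letter over the 26 tumors of the lines with both letters, 0 of the 10 genes differed between W and a at an adjusted p-value under 0.05, beside 0.243% of all tested genes higher and 0.0652% lower in W. At an unadjusted p-value under 0.05, 3 of the 10 genes (H2-K1, H2-D1 and H2-T23) and 1266 of the 16879 tested genes passed. H2-D1 came closest, with a log2 difference of 0.27 ± 0.08 (SE, edgeR adjusted p = 0.231), and DESeq2 called it with an adjusted p-value of 0.0491. In MCA-970 H2-D1 was 1335, 1964 and 1344 CPM in the W tumors W-1D, W-2D and W-R and 1029, 966 and 1288 CPM in the a tumors a-1D, a-2D and a-2G. Its log2 difference within lines was 0.51 in MCA-970, 0.31 in MCA-969 and 0.13 in MCA-948 (edgeR adjusted p = 0.350, 0.306 and 0.761). It was 0.11 in MCA-943, which has 1 W tumor. The smallest adjusted p-value of the interaction of letter and line was 0.629, for Tapbp.

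Other class I heavy chain genes moved with the classical ones. Of 17 such genes 12 passed the filter on low counts. Of these, 11 were called higher in MCA-943 than in MCA-948 and 0 lower, beside 17.7% and 11.3% of all tested genes. Their median log2 fold change was 4.33. H2-Q7, which encodes a Qa-2 heavy chain, was called in all 10 pairs of lines, with mean levels of 273 ± 57 CPM (SD, n = 4) in MCA-943, 103 ± 42 (n = 6) in MCA-970, 15.2 ± 6.2 (n = 8) in MCA-969, 4.09 ± 1.71 (n = 4) in MCA-972 and 0.245 ± 0.151 (n = 8) in MCA-948. Its near-identical neighbour H2-Q6, as well as H2-Q4, H2-T10 and H2-T22, had the same order of line means, with the caution on shared reads given above. H2-T22 and H2-Q10 were called higher in 4 of the 6 comparisons between lines of unlike sensitivity and lower in 0, but H2-Q10 did not exceed 0.576 CPM in any tumor.

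The relatives of class I that do not present peptides from the proteasome gave a mixed picture. Fcgrt, the neonatal Fc receptor, which also pairs with beta2-microglobulin, was higher in MCA-943 (130 ± 7 CPM, SD, n = 4) than in MCA-948 (6.64 ± 2.75, n = 8) by 4.29 ± 0.22 on the log2 scale (SE, edgeR adjusted p = 8.86e-16). Cd1d1, which presents lipids, had another order. Its mean was highest in MCA-970, 31.6 ± 2.7 CPM (SD, n = 6), and MCA-972, 30.3 ± 2.0 (n = 4), and 11 ± 0.8 (n = 4) in MCA-943, and of the same 6 comparisons it was called lower in the non-sensitive line in 4 and higher in 1.

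Genes that help class I to fold or trim its peptides had ranges near those of all genes, with a median of 0.92 beside 1.11. Of 11 such genes, all of which passed the filter, 2 were called higher in MCA-943 than in MCA-948, a share close to the 17.7% of all tested genes. The chaperones Calr, Canx and Pdia3 were called in no pair of lines, with line means of 1106 to 2106, 733 to 848 and 807 to 1235 CPM. The 2 genes called were Tapbpl, a tapasin-like peptide editor, with 41.0 ± 9.1 CPM (SD, n = 4) in MCA-943 and 4.32 ± 0.42 (n = 8) in MCA-948, and Erap1, which trims peptides in the endoplasmic reticulum. Erap1 was 152 ± 19 CPM (SD, n = 4) in MCA-943, and its means in the other 4 lines lay between 33.9 and 42.9 CPM.

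Among the inducible proteasome genes outside the 10, ranges were 2.57 for Psmb10, 1.73 for Psme1 and 1.86 for Psme2 on the same log2 scale. Of 4 genes, the catalytic subunit gene Psmb10 and the PA28 activator genes Psme1 and Psme2 were called higher in MCA-943 than in MCA-948, MCA-972 and MCA-969. The shares of all tested genes were 17.7%, 12.2% and 12.1%. Between MCA-972 and MCA-948, 0 of 4 were called, beside 18.5% higher and 8.27% lower in MCA-972 of all tested genes. Psmb8 and Psmb9 were called higher in MCA-972 there. Among 10 constitutive proteasome genes, 0 were called higher in MCA-943 than in MCA-948 and 1 lower, beside 17.7% and 11.3% of all tested genes. The latter was Psme3, which encodes the nuclear PA28 gamma activator and was highest in MCA-948 (259 ± 18 CPM, SD, n = 8). Psme4 was lowest in MCA-948 (130 ± 10, n = 8).

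**Figure D5:**
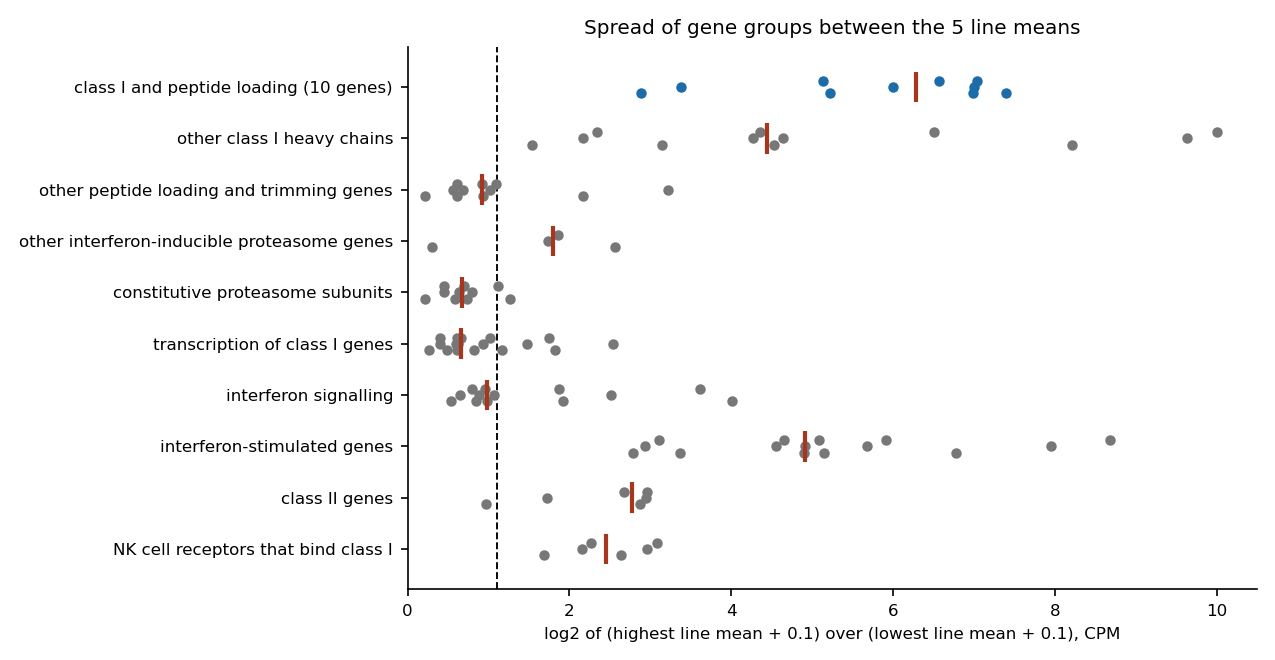
Range of each gene over the 5 line means, as the log2 of the highest over the lowest mean (CPM + 0.1), for the 10 genes (blue) and 9 other gene groups (grey). Red bars are group medians and the dashed line is the median over all 16862 tested genes, 1.11. The 10 genes (median 6.28) and the interferon-stimulated genes (4.91) lie far to the right, and the constitutive proteasome subunits (0.67) to the left of the dashed line.

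Regulators of class I transcription other than Nlrc5 changed less than their targets. Of 17 genes that passed the filter, 3 were called higher in MCA-943 than in MCA-948 and 1 lower, beside 17.7% and 11.3% of all tested genes. Their median range between line means was 0.66 on the log2(CPM + 0.1) scale, beside 6.28 for the 10 genes and 1.11 over all tested genes. Irf1, an interferon-induced factor that binds the IRF core, was 237 ± 53 CPM (SD, n = 4) in MCA-943, 204 ± 37 (n = 6) in MCA-970, 162 ± 46 (n = 8) in MCA-969, 100.1 ± 39.5 (n = 4) in MCA-972 and 66.9 ± 8.9 (n = 8) in MCA-948, the order of H2-K1 over a much narrower range (1.82 ± 0.19 on the log2 scale between the extremes, SE, edgeR adjusted p = 2.61e-09). Rfx5, a subunit of the factor that binds the X box, was lowest in MCA-943, at 14.8 ± 0.9 CPM (SD, n = 4), and was called lower there than in MCA-969 (29.99 ± 1.69, n = 8) by 1.02 on the log2 scale. Irf8, a factor of myeloid cells and of interferon responses, was 14.4 ± 4.8 CPM (SD, n = 4) in MCA-943 and 14.3 ± 3.6 (n = 8) in MCA-969, above the line means of 2.41 to 8.22 CPM of the sensitive lines. Ciita, the class II counterpart of Nlrc5, had line means of at most 0.489 CPM.

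Interferon-stimulated genes outside the pathway were higher in MCA-943 than in the other lines for most genes, as were the 10 genes. All 15 passed the filter. In MCA-943, 15 were called higher than in MCA-948 and 15 than in MCA-969, beside 17.7% and 12.1% of all tested genes. There, 14 were higher than in MCA-970, beside 12.6%, and 14 than in MCA-972, beside 12.2%. Against MCA-948, 14 were higher in MCA-970, 13 in MCA-969 and 13 in MCA-972, beside 19.8%, 16.8% and 18.5%. In these comparisons 0 were lower, beside 9.64%, 3.91% and 8.27%. Against MCA-970, 1 was higher and 8 were lower in MCA-969, beside 10.7% in either direction. Against MCA-972, 1 was higher and 2 were lower in MCA-969, beside 10.3% in either direction. The median log2 fold change was -0.58, where the 10 class I genes had 4 higher and 0 lower and a median of 0.69. The chemokine gene Cxcl9 was 341 ± 273 CPM (SD, n = 4) in MCA-943 and 0.734 ± 0.597 (n = 8) in MCA-948, Iigp1, an immunity-related GTPase gene, 273 ± 154 and 1.00 ± 0.74, and Gbp2, a guanylate-binding protein gene, 362 ± 169 and 10.5 ± 3.4. Gbp3, Isg15, Ifit1, Ifit3, Mx1, Oas1a, Irf7, Usp18 and Cxcl10 were each called higher in 4 of those 6 comparisons. Of these, Isg15 and Oas1a were also called lower in 2 of the 6, Gbp3, Ifit1, Ifit3 and Usp18 in 1, and Mx1, Irf7 and Cxcl10 in 0. Ido1, which encodes a tryptophan-degrading enzyme, was the only one of the 15 genes called higher in all 6, with 1.34 ± 0.41 CPM (SD, n = 4) in MCA-943, 0.481 ± 0.449 (n = 8) in MCA-969 and line means of at most 0.136 CPM in the sensitive lines. In the sensitive lines 3 counts per tumor stand for 0.0792 to 0.0908 CPM, so that these calls rest on few reads. The range within MCA-943 was wide for these genes, and that of Cxcl9 ran from 118 to 737 CPM.

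Between MCA-970 and MCA-972, 9 of the 10 class I genes and 3 of the 15 interferon-stimulated genes were called higher in MCA-970, beside 8.56% of all tested genes. Their median log2 fold changes were 1.87 and 0.53, beside 0.01 over all tested genes. The difference between the 2 counts of called genes was not tested. Interferon receptors and kinases differed among themselves. Of 15 signalling genes 13 passed the filter, and Ifngr2, Ifnar2, Jak1, Jak2 and Tyk2 were called in no pair of lines. The receptor gene Ifngr1 was called in 4 pairs, with a mean of 177 CPM in MCA-943 and of 48.2 to 71.6 CPM in the other lines, and Ifnar1 was called in 1 pair, lower in MCA-969 than in MCA-970 by 1.06 on the log2 scale. Stat2, a transcription factor of the type I interferon response that is itself induced by interferon, was highest in MCA-943, with 109 ± 44 CPM (SD, n = 4), and lowest in MCA-948, with 8.81 ± 1.37 CPM (n = 8).

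Class II genes and most genes of the NK receptor list had low levels in these tumors. H2-Aa did not exceed 17.4 CPM and Cd74 45.3 CPM in any tumor, and both were highest in MCA-943 and lowest in MCA-969. Of 6 class II genes, 5 were called higher in MCA-943 than in MCA-948 and than in MCA-969, beside 17.7% and 12.1% of all tested genes. Macrophage marker sums were 21.5 to 116 CPM in MCA-943 (median 54.0), 13.3 to 67.3 in MCA-969 (19.5) and 28.7 to 157 in MCA-948 (87.3). They were 22.9 to 347 in MCA-970 (53.3) and 33.4 to 84.6 in MCA-972 (36.7). Their median was highest in MCA-948, whereas the highest single tumors, W-1D (347 CPM) and W-R (209 CPM), were of MCA-970.

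Of 10 receptor genes 6 passed the filter. Klra4, which encodes a Ly49 receptor, stood out with line means of 58.4 CPM in MCA-972, 50.7 in MCA-943, 41.4 in MCA-970, 35.6 in MCA-948 and 13.1 in MCA-969, and was thus highest where the NK cell markers had their lowest median. The other 5 had line means of at most 1.12 CPM. Klra7 had line means of at most 0.726 CPM and Klra9 of at most 0.223 CPM, with 0 counts of Klra9 in the 4 MCA-972 tumors, which allows a level of up to 0.0792 CPM at 3 counts per tumor, for counting error only. NK cell and ILC1 marker sums were 4.38 to 23.2 CPM in MCA-943, 2.60 to 9.33 CPM in MCA-948 and 0.359 to 16.4 CPM in MCA-970. They were 0.557 to 3.56 CPM in MCA-969 and 0.491 to 1.12 CPM in MCA-972, where Ncr1 had no count. These sums also differed by title letter. In MCA-970 they were 2.58 to 16.4 CPM in W and 0.359 to 0.823 CPM in a tumors. Every W tumor was likewise above every a tumor in MCA-943 and MCA-948, while the letters overlapped in MCA-969. MCA-972 has no W tumor, so that lines and letters are mixed in these sums. The median was 3.24 CPM in MCA-948 and 1.70 CPM in MCA-970, whose tumors W-1D (14.9 CPM) and W-R (16.4 CPM) lay above every MCA-948 tumor. All 6 receptors had lower line means in MCA-948 than in MCA-970, but a median and a line mean are unlike measures. The part of macrophages and NK cells in the class II and receptor levels was not tested.

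Variation within lines was described without a test. After subtraction of each line's mean of log2 CPM, the Pearson correlation over the 30 tumors was between 0.0751 and 0.885 for the 45 pairs of the 10 genes, with a median of 0.551. The closest pair was Tap1 and Tap2 (0.885), followed by H2-K1 and H2-D1 (0.840) and Tap1 and Psmb9 (0.838), whose annotated ends overlap on opposite strands. The least close pairs were B2m with Tap2 (0.0751) and with Tapbp (0.0786). These values are descriptions, since tumors share runs of library numbers and the same scaling. Tumors at the edge of their line were so for many genes at once: besides W-2D in MCA-970 and a-R and a-1G in MCA-943, tumor a-1 was lowest in all 10 genes in MCA-972.

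The genes most like each member within the lines, by the same correlation, were as follows. H2-K1 was closest to H2-Q7 (0.901), H2-Q4 (0.805) and H2-Q6 (0.787), H2-D1 to H2-T22 (0.759), H2-Q7 (0.738) and H2-Q6 (0.736), and H2-T23 to H2-T22 (0.846), Idnk (0.759) and Gm2619 (0.750). The closest gene of each heavy chain gene was another heavy chain gene, and these share stretches of sequence. Tap1 was closest to Irgm2 (0.911), H2-Q4 (0.905) and Phf11d (0.894), Tap2 to Iigp1 (0.920), Tlr3 (0.884) and Tnfsf10 (0.883), and Tapbp to Ddx58 (0.882), Znfx1 (0.868) and Parp10 (0.858). Psmb8 was closest to Ifi47 (0.789), Gm4070 (0.787) and Iigp1 (0.775), and Psmb9 to Ifi35 (0.818), Phf11d (0.754) and Nfkbie (0.743). Nlrc5 was closest to H2-M3 (0.807), Igtp (0.794) and Trim21 (0.791), and B2m to Psme1 (0.741), Rpl22-ps1 (0.695) and Arl3 (0.680).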

How the data were processed

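RNA was sequenced from 30 tumors of 5 MCA-induced fibrosarcoma lines after removal of CD45+ cells. The authors deposited 1 table of read counts per gene, not normalized, on build GRCm38. The submitters' processing notes name STAR 2.5.3a, featureCounts 1.5.2 and Picard. The strand setting and the treatment of reads that match several genes are not given in the sources used here.

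Tumors were grouped by the line in their titles, and 27745104 to 46537062 counts per tumor were assigned to genes. Where a label gives no culture or animal, p-values measure only the spread between these tumors. Counts were scaled by TMM in edgeR 4.0.16 (R 4.3.3), genes were kept by filterByExpr with the line as group, and all 10 pairs of lines were tested in 1 quasi-likelihood fit over 16862 genes with Benjamini-Hochberg adjustment. The biological coefficient of variation was 0.221. Levels are CPM, per kb of exons where genes are compared. Letters W and a were compared in 26 tumors with line in the model, over 16879 genes. Sensitivity was compared by an exact permutation test over line means. The scripts for the tests across genes were tested on simulated data. Alternatives were DESeq2 1.42.0, limma-voom (limma 3.58.1), other size factors, filters and thresholds, run, index set or leukocyte score as covariates, a replicate block, and leaving out each tumor. The members and lists were chosen with earlier results of these data known.

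Named genes were the 10 members, the list genes called in 1 direction in at least 4 of the 6 comparisons between lines of unlike sensitivity, the 2 largest of each list, Irf1, Rfx5, Psmb10 and H2-Q7, and the 3 closest genes of each member. A further gene that this rule names is not reported here. Other list genes, such as Psmb5, Psmb6, Psme1, Calr, Canx, Pdia3, Ciita, Jak1, Ifngr1, Ifnar1, Klra4 and H2-M3, were named after their values were seen. Overlapping or antisense genes lie on every member but H2-K1 and H2-D1, and reads from such pairs could not be told apart here.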

Additional observations from a re-analysis of the deposited data

Results flagged for a closer look

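In groups of 4 to 10 tumors, 50 levels of the 10 genes were checked for a tumor far from the rest of its line by Dixon's criterion, and 7 stood out, where chance gives about 1 in 20. MCA-970 tumor W-2D was far above the other tumors of its line in H2-T23 (35.7 CPM, next 21), Tap1 (96.7 CPM, next 46.4), Tap2 (40.8 CPM, next 23.9), Psmb9 (17.6 CPM, next 8.94) and Nlrc5 (35.5 CPM, next 24.1). MCA-948 tumor W-1D was far above the others of its line in H2-D1 (80.9 CPM, next 69.6) and Nlrc5 (0.973 CPM, next 0.558). The levels of the 10 genes vary together within a tumor, so that these are not 7 independent events.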

How the results depend on the processing

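Of the counts of called genes per comparison under alternatives, 448 stayed within 1.5 times the reported count and 7 did not. With the fold threshold raised to 2 on the log2 scale, 5 genes were called between MCA-943 and MCA-970, 0 between MCA-969 and MCA-970, 1 between MCA-969 and MCA-972, 5 between MCA-972 and MCA-948 and 4 between MCA-970 and MCA-972. With run as a covariate, 4 were called between MCA-943 and MCA-970. With the title code as a replicate block, 4 were called between MCA-970 and MCA-972. The codes did not pair the tumors: over 29 pairs of the same code the correlation of deviations ran from -0.43 to 0.41, with 8 over 0.1. Between letters W and a, DESeq2 called 1 gene, H2-D1. The cause of these changes was not tested. Of the log2 fold changes of called genes, 3724 kept the call and 49 lost it, 26 of them at the log2 threshold of 2, and 0 changed sign. Leaving out 1 tumor at a time gave 7 to 9 called genes between MCA-943 and MCA-970, 5 to 8 between MCA-969 and MCA-970, 7 to 8 between MCA-972 and MCA-948 and 8 to 9 between MCA-970 and MCA-972. H2-K1 between MCA-943 and MCA-970 (1.03) fell under the threshold without MCA-943 a-R (0.93), MCA-970 a-1D (0.95) or MCA-970 a-2D (0.98). Tap2 between MCA-970 and MCA-972 came to 0.99 without MCA-970 W-2D. Leaving out tumors with high leukocyte sums was chosen after seeing the data. Depth limits Psmb9, Nlrc5, Psmb8 and Tap1 in MCA-948, where tumors had as few as 3, 6, 13 and 12 reads.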
